A study of Mus musculus with 10 samples.

Results

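The genes described here encode 9 corepressor proteins that are known to work with SCL, also called TAL1, a transcription factor required for blood specification, or with its GATA partners. They are the ETO family genes *Cbfa2t2* and *Cbfa2t3*, the friend-of-GATA (FOG) genes *Zfpm1* and *Zfpm2*, *Gse1*, and 4 genes of the LSD1-CoREST-HDAC complex, *Kdm1a*, *Rcor1*, *Hdac1* and *Hdac2*. They were chosen by name among 22359 protein-coding genes of the GENCODE M1 annotation on mm9, and all 9 were found. In the peak lists, 106 of 70826 peaks came within 2500 bp of a protein-coding transcription start site (TSS) of these genes or overlapped their bodies. *Gse1* held 33 of these peaks, *Zfpm1* 27 and *Cbfa2t3* 17, and the other 6 genes held between 3 and 6 each.

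ChIP-Rx, which is ChIP-seq with *Drosophila* S2 cells spiked in, had been done on cells sorted for mCherry from embryoid bodies (EBs), the aggregates in which mouse embryonic stem cells differentiate, at day 4. The strain label was C57Bl/6 X Sv129 in 3 of 10 samples and had another number after Sv in each of the others, while the study's methods name the J1 line of embryonic stem cells. WT cells carried *Scl:mCherry*, a reporter placed in 1 allele that leaves SCL functional. Delta cells carried *Scl* d/d:mCherry, made from the *Scl:mCherry* line by deleting the DNA-binding bHLH (basic helix-loop-helix) domain of SCL on both alleles, and were derived from single-cell clones, so that both groups carried the mCherry reporter. H2AK119ub, H3K27me3, H3K27ac and H3K4me3 were each measured in 1 library per genotype, giving 8 peak lists. With 1 library per mark and genotype no difference below has a replicate check or a test, and every difference is one between libraries.

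ETO proteins bind E-protein and SCL complexes and bring in NCOR and HDAC corepressors, while FOG proteins bind GATA factors and recruit the NuRD complex. LSD1, the *Kdm1a* product, removes methyl groups from lysine 4 of histone H3 and is held with HDAC1 and HDAC2 by CoREST, the *Rcor1* product. GSE1 is found with the LSD1-HDAC complex. H3K4me3 and H3K27ac mark active promoters. H3K27me3 and H2AK119ub are laid down by Polycomb complexes at silenced genes, and promoters that carry both H3K4me3 and H3K27me3 are called bivalent. A peak in a bulk population does not tell whether marks lie on the same chromosomes or in different cells.

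As a check of the sorted cells, TSS peaks of 14 marker genes were examined. H3K27ac peaks were listed in WT alone at the blood-fated markers *Tal1*, *Lmo2* and *Gata2*, 3 of 3, against 3.43% of all genes. At *Gata2* they covered only 189 bp. None of the 5 mesoderm markers (*Kdr*, *Pdgfra*, *T*, *Mesp1* and *Etv2*), the 3 pluripotency markers (*Pou5f1*, *Nanog* and *Sox2*) or the 3 endoderm and neural markers (*Sox17*, *Foxa2* and *Pax6*) carried H3K27ac at the TSS in either genotype. *Sox17* does not stand for endoderm alone, since the study places it among endothelial genes that SCL activates. H3K4me3 was at the TSS of the 5 mesoderm markers in both genotypes. It was also in both at *Sox2*, *Sox17*, *Foxa2* and *Pax6*, so it does not tell these cell types apart. Among all genes, 60.7% had H3K4me3 at the TSS in WT and 60.3% in Delta. H3K27me3 was in both lists at 12 of the 14 markers, all but *Etv2* and *Nanog*, and at 6216 of all 22359 genes. *Pou5f1* had H3K4me3 in Delta alone over 343 bp, and *Nanog* had it in neither list. *Tal1* is the edited gene itself, and its deletion cannot be checked in peak lists. Whether the sorted cells were the same mixture of mesoderm in both genotypes, and what role this has in the differences below, was not tested. Peaks do not measure expression, and lists called without the spike-in cannot show that a mark rose or fell across the genome.

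The sequences that follow are promoters of *Cbfa2t3* and *Zfpm1*, the genes whose first promoters held any of the motif letters searched. They are 250 bases before the first TSS of *Cbfa2t3* (chr8:125223010-125223259, minus strand), where H3K4me3 was listed in WT alone just downstream, and the same length before its internal TSS (chr8:125202595-125202844, minus strand), where H3K27me3 was longer in Delta. The last is the stretch before the only TSS of *Zfpm1* (chr8:124805789-124806038, plus strand). All are mm9, 5′ to 3′ on the gene's strand. Capitals mark the letters CAGATG, an E-box of the kind bound by SCL with E proteins, and TGATAA or AGATAA, which are GATA motif letters, on either strand (TTATCA is TGATAA read on the opposite strand).
Cbfa2t3 first promoter: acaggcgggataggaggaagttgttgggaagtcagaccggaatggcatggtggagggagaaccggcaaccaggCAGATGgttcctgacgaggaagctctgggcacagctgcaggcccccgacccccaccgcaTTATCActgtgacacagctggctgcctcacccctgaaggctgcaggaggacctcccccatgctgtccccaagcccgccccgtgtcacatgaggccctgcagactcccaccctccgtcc
Cbfa2t3 internal promoter: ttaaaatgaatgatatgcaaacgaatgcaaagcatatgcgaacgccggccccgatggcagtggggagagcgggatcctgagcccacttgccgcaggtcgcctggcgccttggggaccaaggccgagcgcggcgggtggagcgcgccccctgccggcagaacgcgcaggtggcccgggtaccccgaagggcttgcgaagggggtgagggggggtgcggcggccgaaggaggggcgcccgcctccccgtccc
Zfpm1 promoter: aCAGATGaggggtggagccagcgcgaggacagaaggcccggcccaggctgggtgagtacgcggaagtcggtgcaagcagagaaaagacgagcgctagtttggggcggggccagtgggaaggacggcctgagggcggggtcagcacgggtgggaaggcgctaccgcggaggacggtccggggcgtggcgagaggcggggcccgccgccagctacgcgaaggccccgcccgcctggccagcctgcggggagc

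The first *Cbfa2t3* promoter held 1 CAGATG and 1 TGATAA, and it overlapped an exon of the antisense transcript *Gm10612*. The *Zfpm1* promoter held 1 CAGATG, and the internal *Cbfa2t3* promoter held none of the letters searched. Of 22354 promoters of this length, 12.7% held CAGATG, 9.30% AGATAA and 7.47% TGATAA, and 2.25% held CAGATG together with AGATAA or TGATAA. The first promoters of the other 7 genes held none of these letters. A match is only a match of letters. GC content was 64.0% at the first *Cbfa2t3* promoter, 70.0% at the internal one and 72.8% at *Zfpm1*, against a median of 54.4% over all promoters. CpG dinucleotides numbered 9, 27 and 27, against a median of 9, and the first promoters of the other genes ranged from 13 at *Gse1* to 40 at *Cbfa2t2*.

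To ask which marks were at the corepressor genes, TSS peaks were counted in each list. H3K4me3 was at all 9 genes in both genotypes, where 60.7% of all genes had such a peak in WT and 60.3% in Delta. H3K27me3 was at 8 of 9 genes in WT (34.8% of all genes) and 7 of 9 in Delta (32.7% of all genes). H3K27ac was at 6 of 9 in WT (19.9% of all genes) and 6 of 9 in Delta (22.8% of all genes). H2AK119ub was at 2 of 9 in each genotype, against 9.21% of all genes in WT and 5.0% in Delta. For all 4 marks, wherever a gene had a peak in both genotypes, at least 1 WT peak overlapped a Delta peak, though not every peak did. With at least 50% of a WT peak covered, this held for 1 of 2 genes for H2AK119ub and 4 of 5 for H3K27ac. It held for 4 of 6 for H3K27me3 and 9 of 9 for H3K4me3. The share of overlap over all genes was not taken, so this is not shown to be particular to the 9.

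H3K4me3 with H3K27me3 at the TSS was found at 8 genes in WT, every one but *Kdm1a*, and at 7 in Delta, every one but *Cbfa2t2* and *Hdac1*. Among all genes the shares were 32.4% in WT and 30.1% in Delta. H3K27ac was present as well at 5 of the genes in WT, namely *Cbfa2t2*, *Cbfa2t3*, *Gse1*, *Hdac2* and *Zfpm1* (10.5% of all genes). In Delta all these marks were at *Gse1*, *Hdac2*, *Kdm1a*, *Rcor1* and *Zfpm1* (10.2% of all genes). At *Cbfa2t2*, *Kdm1a*, *Rcor1* and *Hdac1* the H3K27me3 peaks were between 219 and 618 bp long, whereas the median H3K27me3 peak was 1304 bp in WT and 1439 bp in Delta. *Hdac1* and *Zfpm2* had no TSS peak of H3K27ac in either list.

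Genes that had a mark in 1 genotype alone were few. For H3K27me3 they were *Cbfa2t2* and *Hdac1* in WT alone (7.04% of all genes) and *Kdm1a* in Delta alone (4.91% of all genes). When a −log10 q of 3 or more was required, neither *Cbfa2t2* nor *Hdac1* kept its peak, and H3K27me3 was left at 4 genes in WT (*Cbfa2t3*, *Zfpm2*, *Gse1* and *Rcor1*), all of them with H3K4me3. In the whole WT list, 6398 of 11345 H3K27me3 peaks reached this value. For H3K27ac the genes with the mark in 1 genotype alone were *Cbfa2t3* in WT (3.43% of all genes) and *Rcor1* in Delta (6.37% of all genes). None of the 9 had H2AK119ub in WT alone (5.08% of all genes) or in Delta alone (0.863% of all genes), and none had H3K4me3 in WT alone (1.06% of all genes) or in Delta alone (0.684% of all genes).

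The length of DNA covered by peaks within the TSS windows, each reaching 2500 bp to either side of a TSS, was then compared between genotypes. Summed over the 9 genes, H3K4me3 covered 27589 bp in WT and 20855 bp in Delta, a ratio of 0.756. H3K27ac covered 6337 bp and 4302 bp, a ratio of 0.679. H3K27me3 was longer in Delta, with 15085 bp and 18926 bp, a ratio of 1.25. H2AK119ub, which was at *Cbfa2t3* and *Gse1* alone, covered 6888 bp and 3259 bp, a ratio of 0.473. With densities scaled to the spike-in, the study reported less H3K27me3 and H2AK119ub at TSSs across the genome in Delta. A longer covered length in these unscaled lists therefore does not show a gain of the mark. The sums depend on the settings. With only the 5′ end of each gene, the H3K27me3 ratio was 0.977 and the H2AK119ub ratio 0.780, and with windows of 1000 bp the H3K27ac ratio was 1.11. Of the 9 genes, 0 kept an H2AK119ub peak when a −log10 q of 3 or more was required. Few H2AK119ub peaks anywhere reached this value, 99 of 4922 in WT and 49 of 2388 in Delta, so the loss is not particular to these genes.

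These lengths were set beside those of all genes that had the mark in both genotypes. The median ratio of Delta over WT was 0.782 for H3K4me3 at the 9 genes and 0.931 over 13324 genes with the mark in both. It was 0.734 for H3K27ac at 5 genes, against 1.02 over 3672. It was 1.30 for H3K27me3 at 6 genes, against 1.00 over 6216, and 0.478 for H2AK119ub at 2 genes, against 0.750 over 925.

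**Figure D1:**
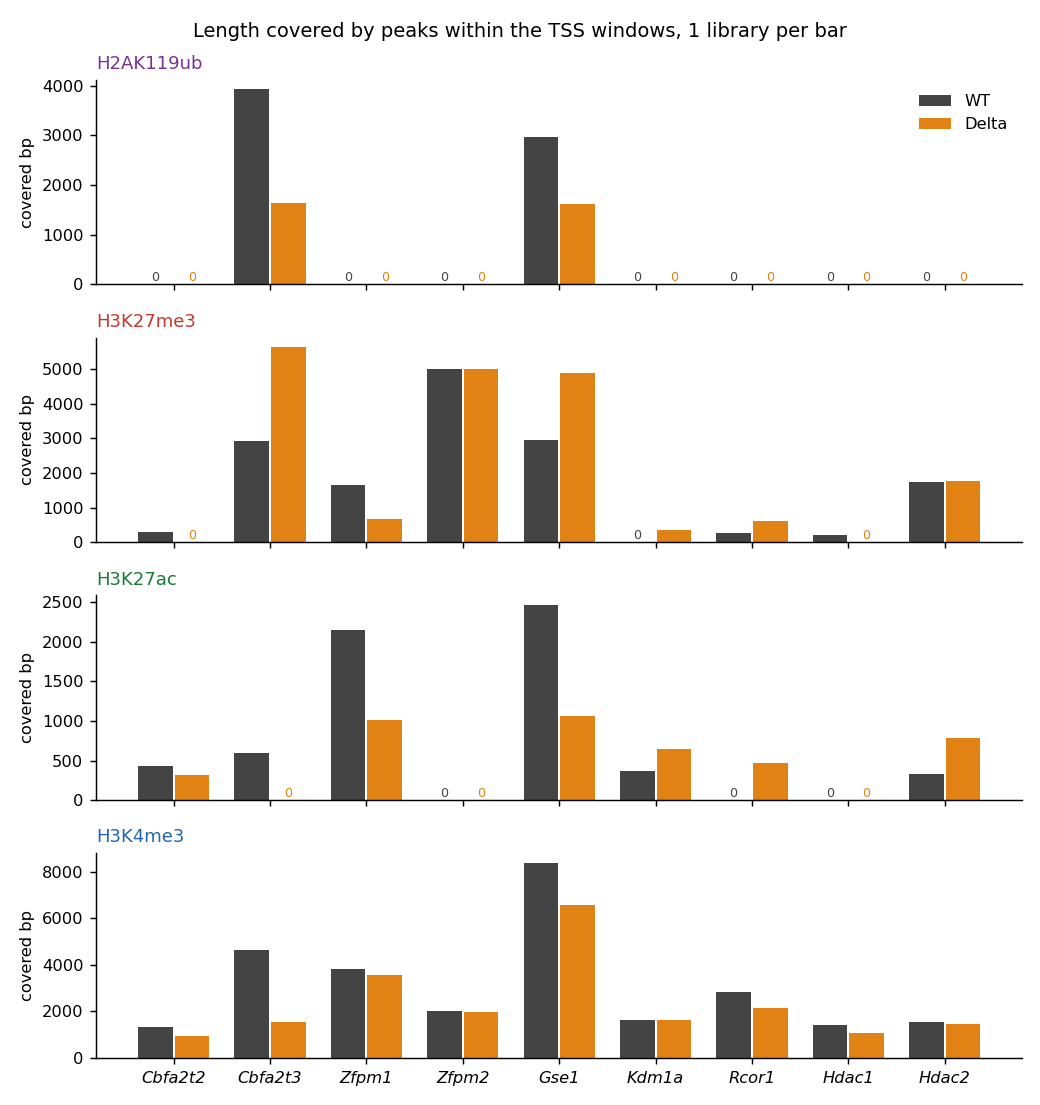
Bars give the base pairs covered by peaks within the TSS windows of each gene, for WT (grey) and Delta (orange), with 1 library per bar, no error bars and a separate linear axis per mark. H3K4me3 at *Cbfa2t3* goes from 4641 to 1528 bp while H3K27me3 goes from 2922 to 5623 bp, and a 0 is printed where no peak was listed.

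At a threshold of 1.5 times, H3K27me3 was longer in Delta at *Cbfa2t3*, *Gse1* and *Rcor1* (12.5% of genes with the mark in both) and shorter at *Zfpm1* (14.6%). H3K27ac was longer at *Kdm1a* and *Hdac2* (23.6%) and shorter at *Zfpm1* and *Gse1* (19.1%). H3K4me3 was shorter at *Cbfa2t3* (9.54%) and longer at none of the 9 (2.96%). H2AK119ub was shorter at both *Cbfa2t3* and *Gse1* (43.9%) and longer at neither (18.3%). H3K4me3 and H3K27me3 past the threshold in opposite directions, shorter and longer in Delta, were found at *Cbfa2t3* alone among the 9, and at 62 of 5627 genes with both marks in both genotypes (1.1%). Together with H3K27ac in WT alone, as at *Cbfa2t3*, this held for 6 genes (0.107%). At *Cbfa2t3* the state comes from adding up its TSS windows. The longer H3K27me3 lay at the internal TSSs, where H3K4me3 was shorter by less than the threshold (2221 to 1528 bp), and the H3K4me3 peak listed in WT alone lay at the first TSS, which had no H3K27me3 in either list. The H3K27ac peak is below a −log10 q of 3. The 3 blood-fated markers had H3K27ac in WT alone, but none of them met the same state. *Tal1* had H3K27me3 over 1800 bp in WT and over 4785 bp in Delta, with an H3K4me3 ratio of 0.686, short of the threshold. *Lmo2* had an H3K4me3 ratio of 0.620, but its H3K27me3, over 850 bp and 1272 bp, was short of the threshold. *Gata2* was short of it for both marks, with ratios of 1.38 for H3K27me3 and 0.930 for H3K4me3. Genes short of the threshold were not counted over all genes.

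**Figure D2:**
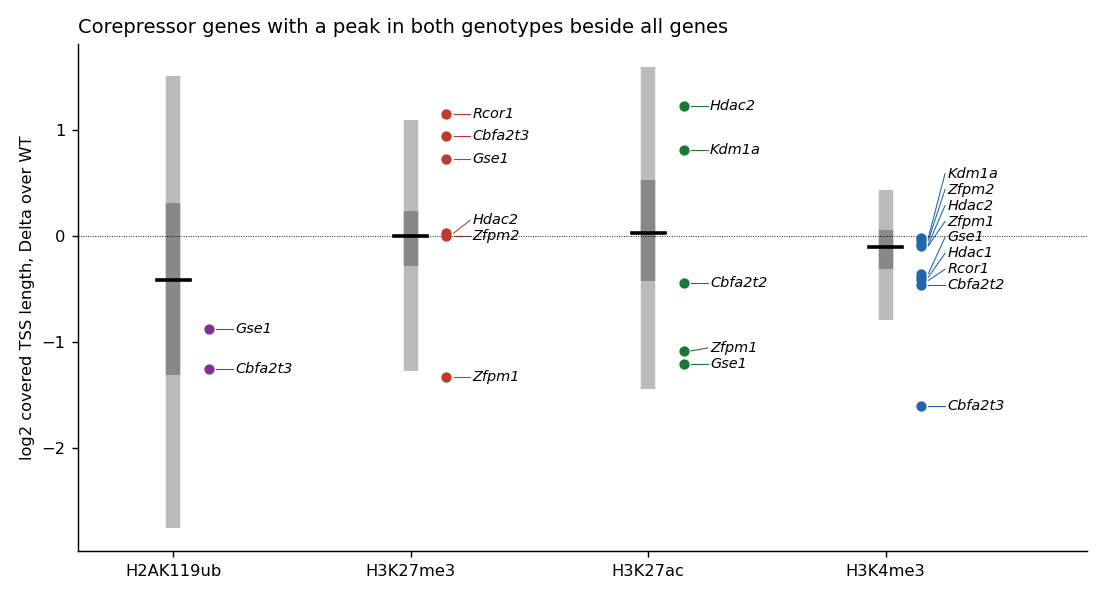
Points show the log2 ratio of covered TSS length, Delta over WT, for corepressor genes with a peak in both lists. Dark and light grey bars span the middle 50% and 90% of all such genes, and the black line is their median. *Cbfa2t3* lies below the light bar for H3K4me3, *Rcor1* just above it and *Zfpm1* just below it for H3K27me3, and the H3K27ac points fall on both sides of 0.

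*Cbfa2t3* encodes ETO2, an ETO family corepressor of SCL complexes in blood cells. The gene (ENSMUSG00000006362.9; chromosome 8, 125152639 to 125223009, minus strand) has a first TSS at 125223009 and 3 more within the gene that start 20415 bp downstream. At the first TSS, H3K4me3 covered 2420 bp in WT and was not listed in Delta. This WT peak was 2891 bp long with a fold enrichment of 4.15, lay from 81 to 2971 bp downstream of the TSS and overlapped an exon of *Gm10612*, so the transcript it belongs to cannot be told apart. At the internal TSSs H3K4me3 was in both, over 2221 bp in WT and 1528 bp in Delta. Over both windows the length went from 4641 to 1528 bp, and 0.488% of all genes with H3K4me3 in both had a lower ratio than its 0.329.

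H3K27me3 at *Cbfa2t3* was not listed at the first TSS in either genotype, and at the internal TSSs it covered 2922 bp in WT and 5623 bp in Delta. In WT there were 2 peaks of 1482 bp and 1995 bp, with fold enrichments of 3.61 and 2.89. In Delta a single peak of 10930 bp, with a fold enrichment of 8.02, spanned both of them, from 16607 to 27536 bp downstream of the first TSS. Its fold enrichment was at the 93.6 percentile of the Delta list, where the stronger WT peak was at the 46.0 percentile of its own list. This shift of 47.6 percentile points was larger than that of 98.6% of genes with H3K27me3 in both. Fold enrichments are relative to the local background of each library, so ranks within a list are given beside them. A second H3K27me3 peak of 616 bp near the 3′ end was listed in Delta alone.

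H3K27ac at *Cbfa2t3* was listed in WT alone, at 2 places. The TSS peak of 593 bp had a fold enrichment of 3.23, at the 3.05 percentile of the WT list, and a −log10 q of 2.36, which is among the weaker peaks listed and below the stricter threshold of 3. The other was an intronic peak of 271 bp, with a fold enrichment of 3.90 and a −log10 q of 3.52, located 32899 to 33169 bp downstream of the first TSS (chr8:125189840-125190110). Its sequence is shown because it is the only distal WT acetylation peak of the gene. It held none of the motif letters searched, which 8.31% (CAGATG), 4.99% (AGATAA) and 3.06% (TGATAA) of WT H3K27ac peaks held in their central 271 bases.
Cbfa2t3 intronic H3K27ac peak: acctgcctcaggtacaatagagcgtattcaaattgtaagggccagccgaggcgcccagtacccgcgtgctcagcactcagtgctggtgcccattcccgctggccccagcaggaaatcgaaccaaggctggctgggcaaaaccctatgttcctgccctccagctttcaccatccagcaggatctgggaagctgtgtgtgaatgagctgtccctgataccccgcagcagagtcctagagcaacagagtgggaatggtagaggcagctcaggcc

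H2AK119ub at *Cbfa2t3* covered 3926 bp of the TSS windows in WT and 1646 bp in Delta. The 936 bp at the first TSS in WT had no counterpart in Delta, and the internal window went from 2990 to 1646 bp. Over the gene body there were 5 H2AK119ub peaks in WT and 2 in Delta. WT had another of 217 bp upstream of the first TSS. The strongest TSS peaks of the lists were different peaks. In WT it was the upstream peak of 217 bp, with a fold enrichment of 3.50, at the 30.6 percentile. In Delta it was a peak of 559 bp near the internal TSSs, at 4.31 and the 84.7 percentile. The difference of 54.0 points, larger than that of 94.5% of genes with H2AK119ub in both, therefore does not follow 1 peak. The WT peak that overlapped this Delta peak had a fold enrichment of 3.35, at the 14.3 percentile. The other overlapping pair went from 3.32 to 3.38, at the 11.8 percentile in WT and the 0.733 percentile in Delta. H2AK119ub was shorter over the same internal TSSs at which H3K27me3 was longer. The whole H2AK119ub list held 4922 peaks for WT and 2388 for Delta.

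**Figure D3:**
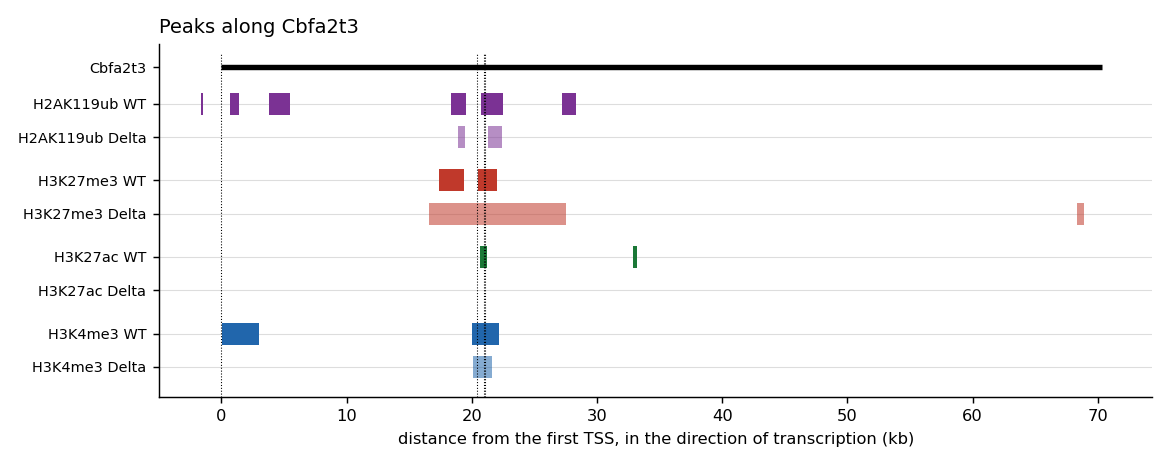
The map shows every listed peak along *Cbfa2t3* by its distance from the first TSS in kb, in the direction of transcription, with 1 row per mark and genotype (Delta in lighter colour). The black bar is the gene and dotted lines are TSSs. The H3K27me3 peak of Delta spans the 2 WT peaks, and the H3K4me3 peak at the first TSS and both H3K27ac peaks appear in WT alone.

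*Cbfa2t2*, the other ETO gene in the list, encodes MTGR1. It (chromosome 2, 154262217 to 154365092, plus strand) had its listed peaks at the first TSS alone. H3K4me3 covered 1319 bp in WT against 957 bp in Delta, and H3K27ac covered 425 bp and 312 bp, so both marks were shorter in Delta by less than the threshold. A 303 bp H3K27me3 peak with a −log10 q of 2.38 was listed in WT alone. H2AK119ub was not listed at this gene. The fold enrichment of H3K4me3 ranked at the 92.8 percentile in WT and the 94.1 percentile in Delta.

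*Zfpm1* encodes FOG1, the GATA1 cofactor of erythroid and megakaryocytic cells. The gene (ENSMUSG00000049577.7; chromosome 8, 124806039 to 124861146, plus strand) has 1 TSS. H3K4me3 there was nearly as long in Delta as in WT, at 3581 and 3815 bp, but its fold enrichment was 6.68 in Delta and 11.5 in WT. In rank this was the 62.1 percentile in Delta against the 97.1 percentile in WT, and 2.72% of genes with H3K4me3 in both had a larger drop. H3K27ac covered 2148 bp in WT against 1014 bp in Delta, and H3K27me3 covered 1662 and 661 bp. With windows of 1000 bp these differences turned to 173 bp and 36 bp in favour of Delta, since the WT peaks reached further into the first intron.

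Within the *Zfpm1* body, H3K27ac had 4 intronic peaks in WT and 3 in Delta. The 3 WT peaks of 267, 422 and 1027 bp, between 26797 and 32729 bp downstream of the TSS, had no counterpart. The fourth, of 2492 bp with a fold enrichment of 4.43, overlapped the 3 Delta peaks, which were 692, 295 and 620 bp long. The peak of 267 bp (chr8:124832836-124833102, plus strand) had the second highest fold enrichment of the 4, at 4.35, and its sequence is shown as an intronic element acetylated in WT alone. It held none of the motif letters searched. In the central 267 bases of WT H3K27ac peaks, 8.20% held CAGATG, 4.90% AGATAA and 2.98% TGATAA.
Zfpm1 intronic H3K27ac peak: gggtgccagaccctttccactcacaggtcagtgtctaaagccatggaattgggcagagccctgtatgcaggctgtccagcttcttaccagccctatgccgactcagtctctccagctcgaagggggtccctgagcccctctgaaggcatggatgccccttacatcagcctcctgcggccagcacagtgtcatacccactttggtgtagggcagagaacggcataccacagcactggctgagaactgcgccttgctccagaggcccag

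At the 3′ end of *Zfpm1*, Polycomb marks were listed in both genotypes. H2AK119ub peaks there were 5634 bp long in WT and 4335 bp in Delta, and H3K27me3 peaks were 3379 bp and 3889 bp. The fold enrichment of the H3K27me3 peak was at the 7.26 percentile in WT and, at 4.95, at the 72.1 percentile in Delta. H2AK119ub covered 18.9% of the gene body in 6 WT peaks and 8.32% in 3 Delta peaks. Unlike *Cbfa2t3* and *Gse1*, *Zfpm1* had no H2AK119ub at its TSS.

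*Zfpm2*, which encodes FOG2, a cofactor of GATA4 in heart development, lies on chromosome 15 (40486588 to 40936138, plus strand). Its first TSS was wholly covered by H3K27me3 in both genotypes, 5001 of 5001 bp, by peaks of 6339 bp in WT and of 6715 bp in Delta. The fold enrichments were 4.84 and 5.38. H3K4me3 covered 2029 bp and 1974 bp. H3K27ac and H2AK119ub were not listed anywhere at this gene, and its H3K4me3 fold enrichment ranked lowest of the 9 in both lists, at the 45.2 and 30.0 percentiles.

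*Gse1* (ENSMUSG00000031822.10, chromosome 8, 123012766 to 123105290, plus strand) has a first TSS and a second cluster of 3 that starts 46991 bp downstream. H3K4me3 covered 8379 bp in WT, the longest of the 9 genes, and 6552 bp in Delta, with both TSS windows shorter in Delta. Its strongest H3K4me3 peak had a fold enrichment of 10.6 in WT and 6.38 in Delta, at the 93.9 and 56.8 percentiles, and 2.05% of genes had a larger drop in rank. H3K27ac covered 2465 bp in WT and 1069 bp in Delta, all at the first TSS. There, the upstream WT peak was 1506 bp long with a fold enrichment of 4.88, and the Delta peak that overlapped it was 408 bp long.

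H3K27me3 at *Gse1* covered 2955 bp in WT and 4879 bp in Delta, a ratio of 1.65 that was higher than that of 90.3% of genes. The first window went from 2221 to 2740 bp and the second from 734 to 2139 bp. At the second TSS cluster the WT and Delta H3K27me3 peaks did not overlap, since the WT peak lay downstream of the 2 Delta peaks. The main peak at the first TSS was 1920 bp in WT and 2788 bp in Delta, with fold enrichments of 3.56 and 5.21. H2AK119ub covered 2962 bp and 1613 bp. This difference had opposite directions in the windows, with 649 to 1236 bp at the first TSS and 2313 to 377 bp at the second, and it reversed when equal numbers of top peaks were taken from both lists.

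Further into *Gse1*, 5 intronic H3K27ac peaks were listed in Delta alone, at lengths of 164 to 574 bp and 10503 to 76856 bp downstream of the first TSS. Of these, 1 had a −log10 q above 3, at 3.67, and the others were between 1.48 and 2.18. *Gse1* thus had less acetylation length at its TSS and more listed acetylation in its introns in Delta. In *Zfpm1* and *Cbfa2t3* the intronic acetylation was shorter or not listed in Delta.

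**Figure D4:**
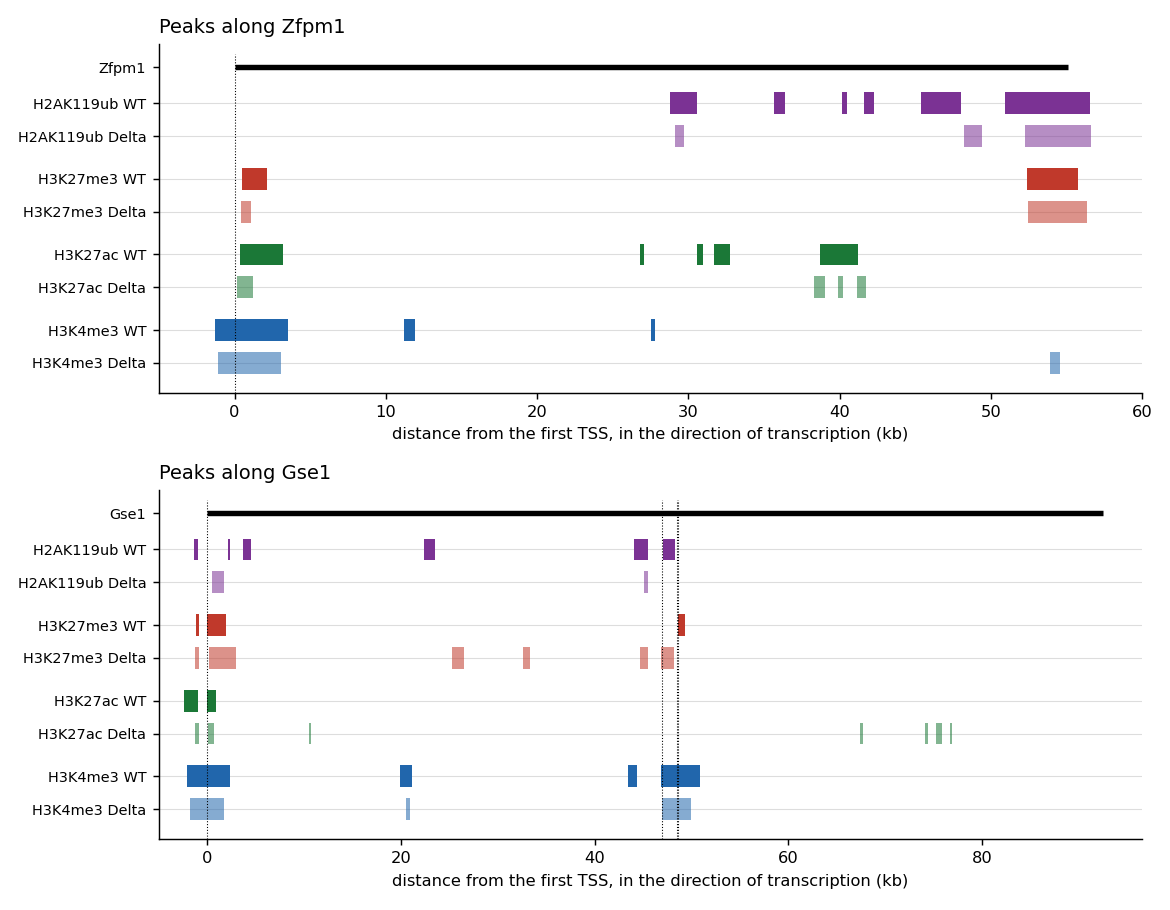
Every listed peak along *Zfpm1* (top) and *Gse1* (bottom) is drawn by its distance from the first TSS in kb, with 1 row per mark and genotype and Delta in lighter colour. Black bars are the genes and dotted lines are TSSs. H3K27ac between 26797 and 32729 bp of *Zfpm1* is present in WT alone, and 5 intronic H3K27ac peaks of *Gse1* in Delta alone.

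*Kdm1a*, encoding the demethylase LSD1 (chromosome 4, 136106455 to 136158638, minus strand), had H3K4me3 over 1626 bp in WT and 1609 bp in Delta. H3K27ac covered 372 bp in WT and 651 bp in Delta, a ratio of 1.75. H3K27me3 was listed in Delta alone over 368 bp, with a fold enrichment of 3.91 and a −log10 q of 4.32. That peak lay 109 to 476 bp downstream of the first TSS, within the span of the Delta H3K27ac and H3K4me3 peaks. No H2AK119ub was listed.

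*Rcor1*, encoding the scaffold CoREST (chromosome 12, 112277561 to 112354112, plus strand), was the gene with H3K27ac in Delta alone. It had 2 such peaks, of 190 bp upstream of the TSS and of 284 bp downstream of it, with fold enrichments of 4.61 and 4.34. H3K27me3 covered 279 bp in WT and 618 bp in Delta, a ratio of 2.22. H3K4me3 was shorter in Delta, at 2132 bp against 2849 bp, with near-equal fold enrichments of 9.88 and 9.61. The upstream peak (chr12:112276690-112276879, plus strand) is shown as the acetylated element of the set outside any exon and listed in Delta alone at a promoter. It held none of the motif letters searched, against 5.52% (CAGATG), 2.68% (AGATAA) and 1.84% (TGATAA) of Delta H3K27ac peaks over their central 190 bases.
Rcor1 upstream H3K27ac peak: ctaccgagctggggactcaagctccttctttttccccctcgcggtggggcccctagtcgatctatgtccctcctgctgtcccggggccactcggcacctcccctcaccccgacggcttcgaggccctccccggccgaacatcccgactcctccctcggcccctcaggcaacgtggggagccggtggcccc

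*Hdac1* and *Hdac2* encode the class I histone deacetylases of the complex. *Hdac1* (chromosome 4, 129193348 to 129219957, minus strand) had H3K4me3 over 1393 bp in WT against 1065 bp in Delta, and a 219 bp H3K27me3 peak in WT alone. *Hdac2* (chromosome 10, 36694350 to 36721695, plus strand) had H3K4me3 over 1538 and 1457 bp. Its H3K27ac covered 334 bp in WT and 782 bp in Delta, a ratio of 2.34, and rose in rank from the 30.9 to the 83.4 percentile. H3K27me3 at *Hdac2* covered 1744 and 1776 bp, in peaks of which the Delta one lay nearer the TSS and overlapped 46.2% of the WT one.

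Set side by side, H3K27ac at the TSS was shorter in Delta or listed in WT alone at *Cbfa2t2*, *Cbfa2t3*, *Zfpm1* and *Gse1*. It was longer in Delta or listed in Delta alone at *Kdm1a*, *Rcor1* and *Hdac2*. Of the first 4 genes, *Zfpm1* turned to the other side with windows of 1000 bp. H3K4me3 was shorter in Delta at all 9 genes, with ratios from 0.329 at *Cbfa2t3* to 0.990 at *Kdm1a*, but with windows of 1000 bp it was 42 bp longer at *Hdac2* and equal at *Zfpm1*. Of all genes with H3K4me3 in both, 66.9% were shorter in Delta by any amount, and 4 of the 9 (*Kdm1a*, *Zfpm2*, *Hdac2* and *Zfpm1*) had a ratio above the median of all genes.

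In rank of fold enrichment, the strongest H3K4me3 TSS peak of *Gse1* dropped by 37.1 percentile points. That of *Zfpm1* dropped by 35.0 points and that of *Cbfa2t3* dropped by 25.6. *Hdac1* dropped by 16.0 points and *Zfpm2* dropped by 15.2. The other 4 genes rose by 0.731 to 9.61 points. Over all genes the median shift was -1.58 points, and the middle 50% of genes lay between -12.3 and 9.47.

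**Figure D5:**
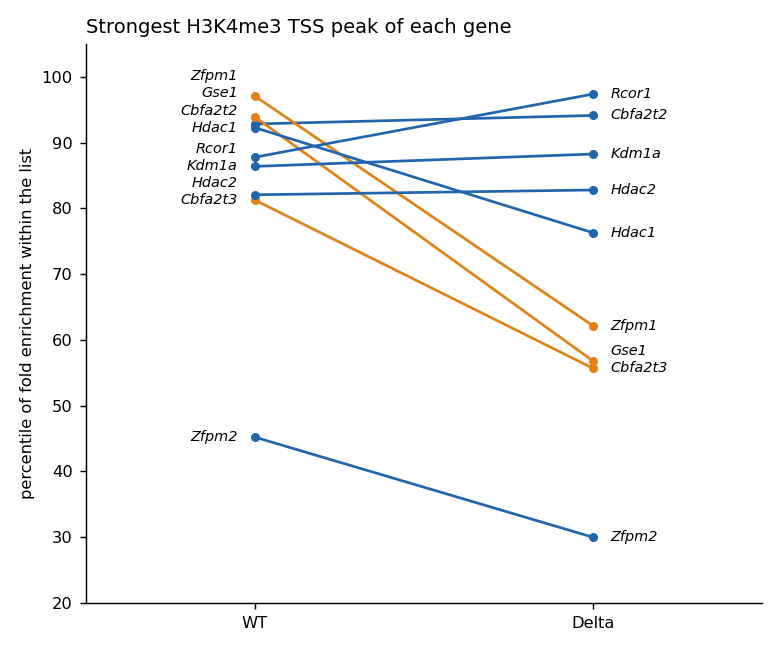
Each line joins the percentile of the strongest H3K4me3 TSS peak of a gene, by fold enrichment within its own list, in WT and in Delta. Orange lines are the 3 genes on chromosome 8 and blue lines the other 6, and the orange lines drop from between 81.3 and 97.1 in WT to between 55.7 and 62.1 in Delta.

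*Gse1*, *Zfpm1* and *Cbfa2t3* lie within 2.21 Mb of each other on chromosome 8 (mm9, 123012766 to 125223009), and all of them lie inside the long annotated gene *Gm20388*, so they are not independent in position. The 33 other protein-coding genes of this stretch were examined beside them. Of these, 26 had H3K4me3 at the TSS in both genotypes and 0 in WT alone. Their median shift in H3K4me3 rank was a rise of 0.910 points, and their median length ratio was 0.985. H3K27ac was in WT alone at 0 of the 33, in both at 13 and in Delta alone at 5. H2AK119ub was in both at 7 of the 33, in WT alone at 5 and in Delta alone at 0. Its median length ratio there was 0.60, so it was shorter in Delta as at *Gse1* (0.545) and *Cbfa2t3* (0.419). H3K27me3 was in both at 14, in WT alone at 6 and in Delta alone at 3. Its median length ratio was 1.00, where the ratio was 1.92 at *Cbfa2t3*, 1.65 at *Gse1* and 0.398 at *Zfpm1*. On the whole of chromosome 8 the median fold enrichment of H3K4me3 peaks was 6.67 in WT and 6.30 in Delta, and on the other chromosomes 6.40 and 5.99.

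The genes that encode further parts of these complexes were described from a list of 26 genes found in the annotation. H3K4me3 was at the TSS in both genotypes at 24 of them, and at 1 (*Gfi1b*) in WT alone (1.06% of all genes). H3K27me3 was in both at 6, in WT alone at 4 (7.04% of all genes) and in Delta alone at 2 (4.91%). H3K27ac was in both at 9, in WT alone at 3 (3.43% of all genes) and in Delta alone at 8 (6.37%). H2AK119ub was in both at 1 and in WT alone at 2 (5.08% of all genes). Of all 22359 genes, 13324 had H3K4me3 in both, 6216 H3K27me3, 3672 H3K27ac and 925 H2AK119ub. Of those with a mark in both, H3K27me3 was at least 1.5 times longer in Delta at 3 (12.5% of all such genes) and shorter at 3 (14.6%). H3K27ac was longer at 1 (23.6%) and shorter at 3 (19.1%). H3K4me3 was shorter at 1 (9.54%), and so was H2AK119ub (43.9%). *Gfi1b* had longer H3K27me3 in Delta and H3K4me3 in WT alone, which is the direction of both marks at *Cbfa2t3*. The other partner genes with H3K27me3 past the threshold, *Runx1t1* and *Chd4*, went the other way for H3K4me3, which was longer in Delta by less than the threshold. The share of all genes with the state of *Gfi1b* was not taken.

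Values are given for the 4 of these further genes with the largest ratios, in either direction, among those with a mark in both lists, so that gains and losses of whole peaks do not enter the choice. *Gfi1b*, which encodes a repressor that recruits LSD1 in blood cells, had H3K27me3 over 577 bp in WT and 2328 bp in Delta, a ratio of 4.03, and H3K4me3 over 1430 bp in WT alone. *Rcor3*, a CoREST paralogue, had H3K27ac over 1433 bp in WT and 250 bp in Delta. *Gatad2a*, a NuRD subunit gene, had H3K27me3 over 932 and 413 bp. *Hmg20b*, which encodes a subunit of the LSD1-CoREST complex, had H2AK119ub over 966 bp in WT, while in Delta a peak reached 17 bp into the window.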

How the data were processed

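ChIP-Rx libraries of 4 histone marks in WT and Delta mCherry-positive EB cells, 1 per mark and genotype, gave 8 peak lists. The 2 inputs were not analysed here. According to the study's methods and processing notes, reads were mapped to mm9 and dm3 with Bowtie, duplicates were removed, and broad peaks were called in each library with MACS2 2.0.10 against the input of the same genotype. Scaling to the spike-in applied to densities, and no such step is given for peaks. For each peak the deposited lists hold a score, a fold enrichment (a ratio over local background), and −log10 of the p-value and −log10 of the q-value, all made by the authors. The largest q-value was 0.0500. Depth is unknown from these lists.

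Coordinates are 1-based mm9, checked against NCBIM37, and genes are from GENCODE M1. Windows of 2500 bp around every protein-coding TSS were merged per gene. A gene had a mark when a peak shared at least 1 bp with a window, and its length was the summed part of peaks inside. Percentiles are ranks of fold enrichment within a list. The score and the p-values were not used, and no test was made.

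Genes, lists and thresholds were chosen with earlier results of these data known. Of 27 partner genes and 15 markers listed, 26 and 14 were found, and the 4 partner genes with the largest length ratio in either direction, among genes with the mark in both lists, are given with values. Groups were taken from the sample titles. The alternatives tried were stricter peaks (a −log10 q or a fold enrichment of 3 or more), peaks joined across gaps of up to 3000 bp, a window of 1000 bp, the 5′ end of each gene only, 50% overlap, and equal numbers of top peaks, the last chosen after seeing the data. Overlap code was tested on simulated data, where 0 of 200 genes were missed, and checked against bedtools 2.31.1 in 8 lists with 0 differences. Python 3.11.15, pandas 2.3.3, numpy 2.4.6 and matplotlib 3.10.9 were used.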

Additional observations from a re-analysis of the deposited data

How the results depend on the processing

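No paired analysis was possible because each mark had 1 library per genotype, and replicates could not be left out in turn. Peak lists hold no read depth, and a region under the q-value limit is not listed, so a peak in 1 genotype alone can be a difference in strength near that limit.

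Of the values over the 9 genes under the alternatives, 111 stayed within the limits set, 26 moved and 2 changed direction. For the ratio of covered length, H2AK119ub (0.473) was 0.493 at a fold enrichment of at least 3, 0.372 with peaks joined, 0.429 with windows of 1000 bp, 0.780 with the 5′ end only and 0.705 with equal numbers of top peaks, and had no value at a −log10 q of at least 3, where no peak remained. H3K27ac (0.679) was 0.375 at a −log10 q of at least 3, 0.869 joined, 0.749 with the 5′ end only, and changed direction to 1.11 with windows of 1000 bp. H3K27me3 (1.25) was 1.70 at a −log10 q of at least 3, 1.52 at a fold enrichment of at least 3, 1.32 joined, 1.39 with 1000 bp, and changed direction to 0.977 with the 5′ end only. H3K4me3 (0.756) was 0.695 joined, 0.875 with 1000 bp and 0.760 with the 5′ end only. The cause was not tested.

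At a −log10 q of at least 3, H2AK119ub was at 0 of the genes in WT and 0 in Delta, H3K27me3 at 4 in WT with 0 in WT alone, and H3K27ac at 2 in WT alone (*Cbfa2t2* and *Zfpm1*) and 2 in Delta alone (*Rcor1* and *Hdac2*). This value was reached by 99 of 4922 H2AK119ub peaks in WT and 49 of 2388 in Delta. For H3K27me3 it was 6398 of 11345 and 6556 of 10881, and for H3K27ac 2900 of 4571 and 2827 of 5269. Shares over all genes were not taken at this setting. With the 5′ end only, H2AK119ub was at 1 gene in Delta and 1 in WT alone, H3K27ac at 0 in WT alone, and H3K4me3 at 1 in WT alone (*Cbfa2t3*). At 50% overlap, 1 gene kept overlapping H2AK119ub peaks. For single genes, 112 values stayed, 35 moved and 5 changed direction, given as Delta minus WT: *Gse1* H2AK119ub was 587 bp with the 5′ end only and 200 bp with equal numbers, and with windows of 1000 bp *Hdac2* H3K4me3 was 42 bp, *Zfpm1* H3K27ac 173 bp and *Zfpm1* H3K27me3 36 bp. At *Cbfa2t3*, H3K4me3 stayed shorter and H3K27me3 longer in Delta in every alternative that gave a value.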
